A study of Mus musculus with 6 samples.

Results

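Heat shock proteins and J-domain cochaperones were followed in RNAseq of the mouse retina. The members were all genes whose symbols begin with Hspa, Hspb, Hspd, Hspe, Hsph, Hsp90, Dnaja, Dnajb or Dnajc followed by a number, without Hspa5, Hsp90b1 and Dnajc3 of the endoplasmic reticulum, which are given below only for comparison. This rule took 68 of the 19401 genes listed in any library, namely 25 heat shock proteins and 43 J-domain proteins. Of them, 60 passed the filter on low counts, 10 or more counts in 3 or more libraries, and were tested together with all other genes that passed, 15537 in total.

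The comparison was between control and efavirenz (EFV)-treated 5XFAD mice, and it asks whether treatment with EFV, an antiretroviral drug given here at a low dose, changes the RNA of the retina. Mice of both groups were hemizygous for the 5XFAD transgenes, mutant human amyloid precursor protein and presenilin 1 driven by the neuronal Thy1 promoter, on the B6SJL background; no mice without these transgenes were part of the comparison. The EFV group received the drug in drinking water from 3 to 9 months of age, at 0.08 mg/kg body weight according to the labels, whereas the methods of the study give a slightly different dose. The control group carries the label untreated and, by the same methods, drank water with the solvent Tween 80. There were 3 libraries per group, every one from a pool of retina plus retinal pigment epithelium (RPE) of 5 to 6 mice, male by the methods, taken at 9 months of age. The libraries held between 23455167 and 24590278 expected counts, those of control replicates 1, 2 and 3 being 24590278, 23455167 and 24337444, and those of EFV replicates 1, 2 and 3 being 24487218, 24360060 and 24160101.

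HSP70 chaperones bind hydrophobic stretches of unfolded proteins and release them in cycles of ATP hydrolysis. J-domain proteins bring clients to HSP70 and stimulate its ATPase, HSP110 proteins exchange its nucleotide, HSP90 matures signalling proteins such as kinases and receptors, and small heat shock proteins hold unfolding proteins without ATP. Part of the family is induced by heat shock factor 1 (Hsf1), which binds the heat shock element, whereas other members are made at a steady rate, and photoreceptors, which renew their light-sensing membranes every day, depend on this machinery to fold and traffic the proteins of phototransduction.

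Levels are given below as FPKM, fragments scaled to transcript length and library depth, in the order of replicates 1, 2 and 3. The RNA was that of the retina: Pde6g, a subunit of the phosphodiesterase of rods, was at 2456, 2546 and 2246 FPKM in control and 2241, 2248 and 2181.98 FPKM in EFV, and the 6 cone markers summed to 448, 463 and 494 FPKM in control and 423, 466 and 505 FPKM in EFV. The RPE markers varied between libraries, and the share of RPE in the pools was not measured. The 8 markers summed to 57.9, 28.4 and 54.3 FPKM in control and 50.5, 63.8 and 64.7 FPKM in EFV, and Ttr made most of this sum. Rpe65 itself was at 4.65, 2.35 and 5.69 FPKM in control and 6.05, 6.59 and 6.69 FPKM in EFV, and control replicate 2 had the lowest value. A single library stood apart. The 8 lens markers summed to 9.92, 19.2 and 545 FPKM in control and 15.7, 6.23 and 20.2 FPKM in EFV, so control replicate 3 carried lens RNA that the other libraries nearly lacked. Crygs, a lens crystallin, was the most abundant of them, and none of the 8 was at 0 in any library. The 12 immediate-early genes, which respond to stimulation and to handling, were also highest there, with a summed FPKM of 91.8, 86.8 and 208 FPKM in control and 111, 76.1 and 89.6 FPKM in EFV. Calls on members that changed without this library are therefore given with and without it, as are the estimates of some named members. In pools of whole tissue, fewer cells of a type and less RNA per cell cannot be told apart.

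The promoters of the members are shown first, searched for the letters of the heat shock element. RefSeq promoter windows (GRCm38.p6, from 250 bases before to 50 bases after the start site) were searched for 54 of the 68 members. Among them were 10 of the 12 members known to be heat-inducible. The remaining members were left out of the search, which does not show that they lack a window. The shares of all genes with a window, given below, were not restricted to a matched set. The full element was searched on both strands as TTCNNGAANNTTC, and its shorter form as GAANNTTC, a palindrome that lies within the longer one or beside it. The full form was found in the windows of 4 members, Dnajb6, Hspd1, Hspe1 and Hsph1, of which 3 are on the heat-inducible list; of all genes with a window, 0.662% held it. The shorter form was found for 13 members, 7 of the 10 heat-inducible ones and 6 of the other 44, compared with 9.04% of all genes with a window. The other order of 2 units, TTCNNGAA, was found for 6 of the 54 members (Dnajb4, Dnajb6, Dnajc10, Hspd1, Hspe1 and Hsph1), 4 of the 10 heat-inducible ones and 2 of the other 44, compared with 9.6% of all genes with a window. A match describes letters only, and no match says only that these letters are not in this window. The following stretches run from 20 bases before the first to 20 bases after the last match, with the fixed letters of the element in capitals. The first was found between the start sites of Hspe1 and Hspd1, which are transcribed away from each other, the next before Dnajb6, and the last 3 before the inducible HSP70 genes and Hspb1.
Hspe1 and Hspd1 (chr1:55088039-55088096, plus strand, which is the strand of Hspe1): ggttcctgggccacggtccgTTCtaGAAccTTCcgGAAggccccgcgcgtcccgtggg
Dnajb6 (chr5:29735832-29735884, plus strand): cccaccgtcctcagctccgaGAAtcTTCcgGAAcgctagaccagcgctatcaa
Hspa1a (chr17:34972233-34972280, minus strand): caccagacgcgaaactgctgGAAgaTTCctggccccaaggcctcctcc
Hspa1b (chr17:34959315-34959362, minus strand): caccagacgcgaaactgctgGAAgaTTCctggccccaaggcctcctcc
Hspb1 (chr5:135887782-135887849, plus strand): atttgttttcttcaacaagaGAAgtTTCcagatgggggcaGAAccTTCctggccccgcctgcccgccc

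In the stretch of Hspe1 and Hspd1, 4 units alternate without a gap, which gives 2 overlapping matches of the full form at positions -89 to -72 from the start site of Hspe1 and -144 to -127 from that of Hspd1. The stretches of Hspa1a and Hspa1b differed at 0 of 48 positions, and their whole windows at 4 of 300. The matches of Hsph1 were at positions 15 to 27 or 36 to 48, past the start site, depending on which of its start sites is used. Letters of the endoplasmic reticulum stress element, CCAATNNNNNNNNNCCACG, were found in the windows of 0 of the 54 members, among them Dnajb11, and for 0.137% of all genes with a window. The map of element positions places the remaining matches of the full form and of GAANNTTC; TTCNNGAA, which Hsph1 also has before its start sites, is not drawn.

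**Figure D1:**
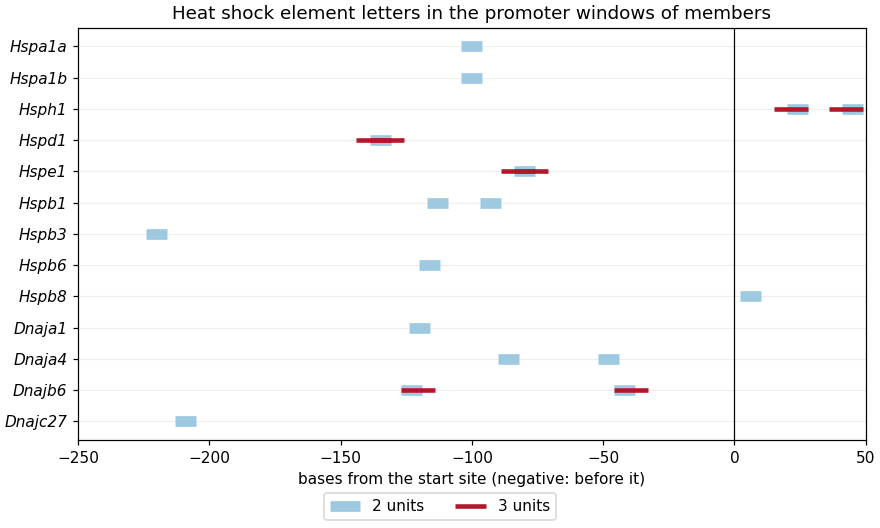
Position of heat shock element letters in the promoter windows of members, in bases from the start site (vertical line at 0, negative values before it). Thick pale bars are matches of the 2-unit form GAANNTTC and thin dark bars matches of the 3-unit form, which was found for Dnajb6, Hspd1, Hspe1 and Hsph1; a member with 2 start sites has its match drawn once for each.

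The chaperones were abundant. The members together made up 0.710 to 0.719% of the counts of each library, and their summed FPKM was 2771, 2776 and 2779 FPKM in control and 2768, 2795 and 2799 FPKM in EFV, so the highest library exceeded the lowest by a factor of only 1.01. The median FPKM of the 60 members tested was 19.8, compared with 7.66 for all genes tested. The cytosolic proteins Hsp90aa1, Hspa8 and Hsp90ab1 accounted for 49.1% of the summed level. Of the 50-base stretches of their transcripts, 58.5%, 74.8% and 4.49% also occur in other genes, none of which the deposited values list. This share was 51.9% for Dnaja4, 51.6% for Hspb1, 44.8% for each of Hspd1 and Hspe1, and 42.8% for Dnajb6. What such sharing does to the levels was not tested. Of the 68 members, 4 had a mean of at least 100 FPKM, 43 were between 10 and 100 FPKM, 12 between 1 and 10 FPKM, and 9 below 1 FPKM. The 8 members that were not tested, Dnajb8, Dnajb13, Dnajc5b, Dnajc22, Hspb2, Hspb3, Hspb7 and Hspb9, were all in this lowest range.

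**Figure D2:**
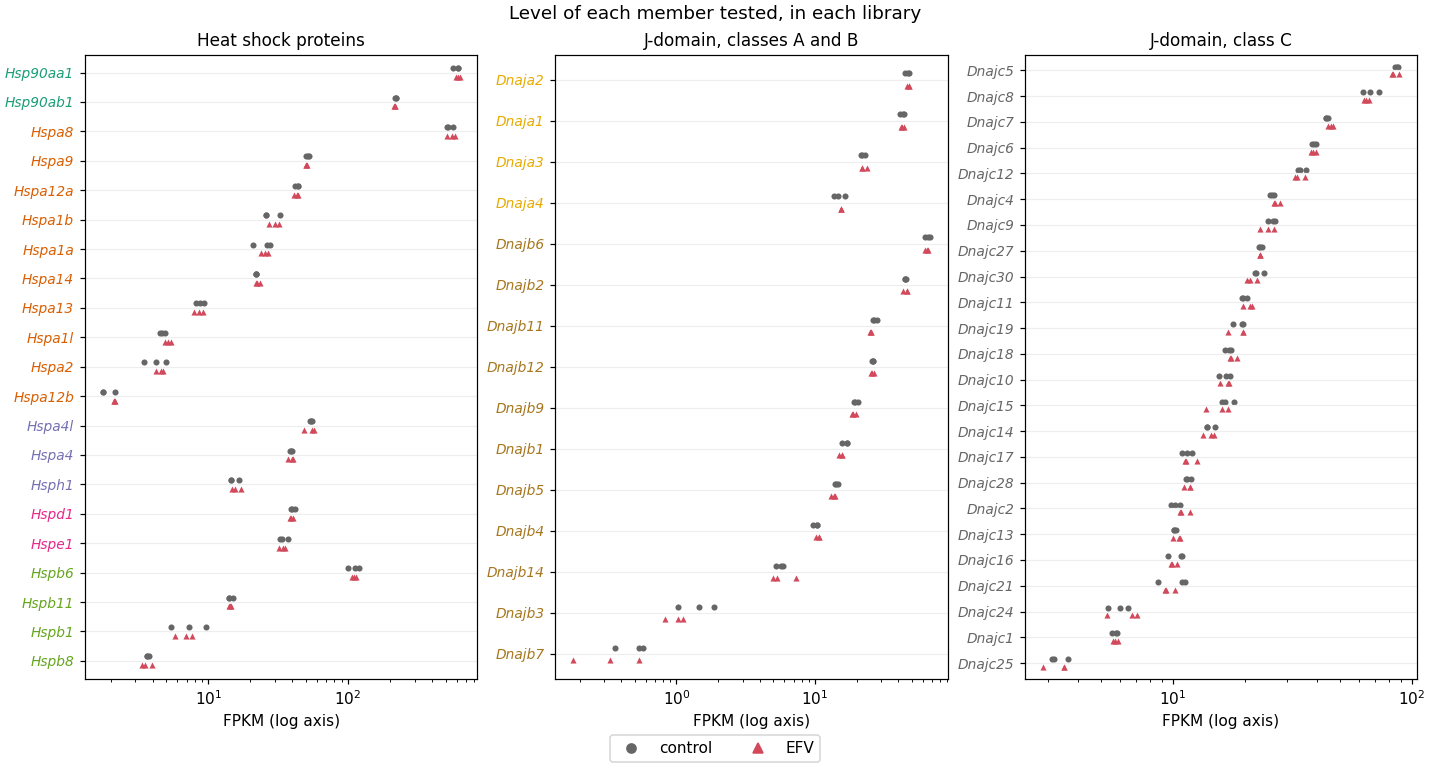
FPKM of the 60 members tested in each library (log axis, which differs between panels), with control libraries as grey circles and EFV libraries as red triangles, and symbols coloured by role. Hsp90aa1 and Hspa8 have the highest values of the members in every library, and the circles and triangles of most members overlap.

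Treatment with EFV left the RNA of the members nearly flat. Of the 60 members tested, 0 had an adjusted p of 0.05 or less in the edgeR test, as had 0.0% of all genes tested (0 of 15537, the lowest adjusted p being 0.323), and the adjusted p was 0.999 for each of the 60. At an unadjusted p of 0.05 edgeR called 1 member, Dnajb11, and 3.04% of all genes, and DESeq2 called 0 members and 0.0708% of all genes at an adjusted p of 0.05. With the limits of the study, an unadjusted p of 0.05 and a fold change of at least 7%, edgeR again called only Dnajb11, 1.67% of the members against 3.01% of all genes tested, and DESeq2 called 0 members and 1.73% of all genes. Groups did not overlap, after scaling, for 5 of the 60 members, or 8.33%, compared with 8.14% of all genes tested. They were lower in EFV for 3 (Hsp90ab1, Dnajb1 and Dnajb11; all genes 4.18%) and higher for 2 (Hspa1l and Dnajc4; all genes 3.95%). These shares were near or below those of all genes. The Poisson model, which takes no account of the spread between pools, called 6 members by the same limits, 10% against 14.8% of all genes. These were Dnajc2, higher in EFV, and Dnajb1, Dnajb3, Dnajb11, Dnajc21 and Dnajc30, lower in EFV. The study also based its calls on the Poisson distribution, but its list of changed genes holds none of these 6. It does hold Hspb2, which did not pass the filter here, and Hsp90b1 and Nudc, all as lower after EFV.

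The median log2 fold change of the 60 members (EFV over control) was -0.021, compared with 0.0012 for all genes tested. The estimate was above 0 for 22 members and below 0 for 38, and for all genes tested for 7853 and 7684. This median moved to 0.0085 without EFV replicate 3, a shift larger than the spread of 0.020 (SD) between libraries. The data were precise enough to bound the change for most members. The 95% interval lay within a 1.2-fold change in either direction for 47 of the 60, within 1.5-fold for 57 and within 2-fold for 58, and the exceptions to the last were the rare Dnajb3 and Dnajb7. For 41 members the group means differed by less than the pooled SD within groups (68.3%, and 74.9% of all genes tested). The median coefficient of variation between libraries was 4.48% for the members and 7.06% for all genes tested, whose median level was lower, and no comparison at matched levels was made.

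**Figure D3:**
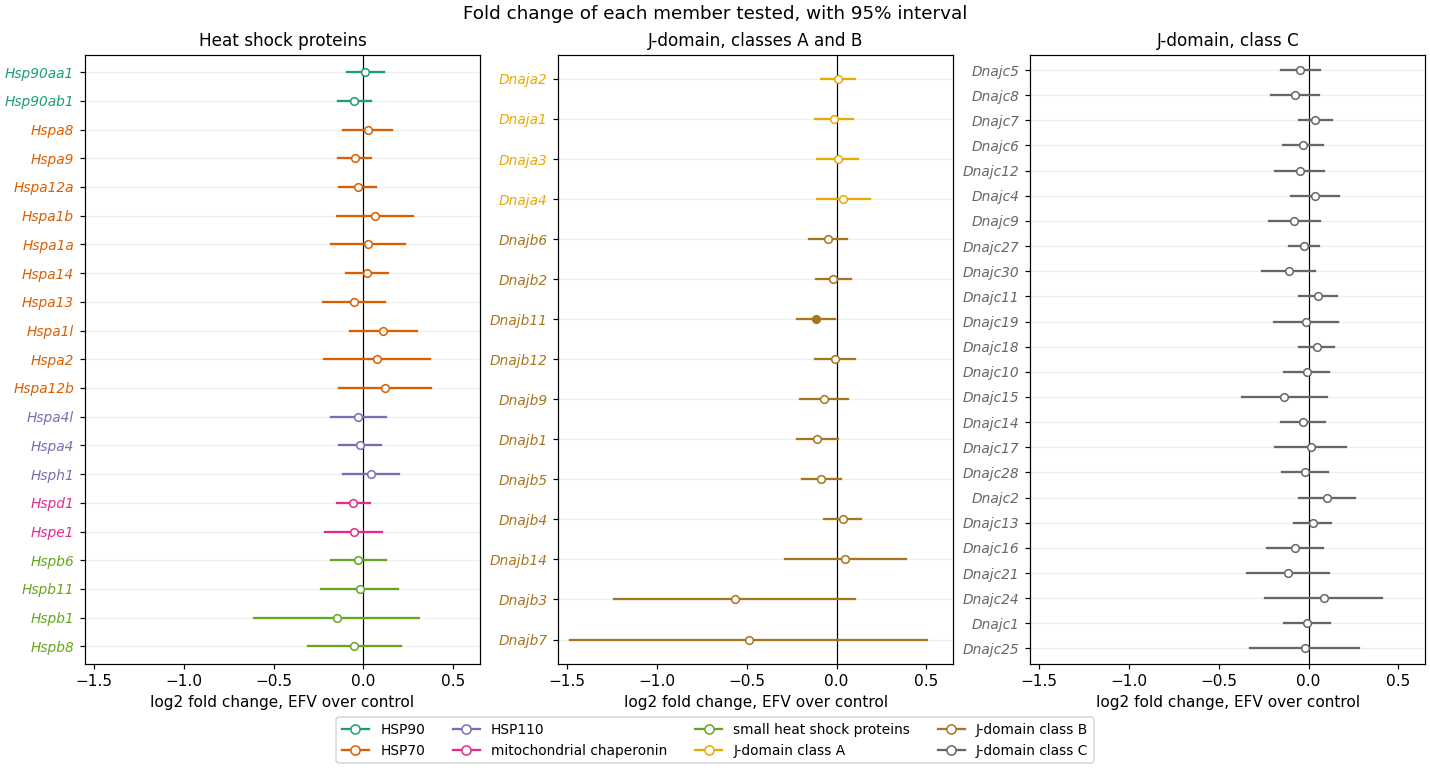
Log2 fold change (EFV over control) of the 60 members tested, with bars for the 95% interval and colours for the role. The filled point marks Dnajb11, the only member past the p and fold limits; the intervals of the other 59 include 0, and those of Dnajb3 and Dnajb7 are the widest.

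**Figure D4:**
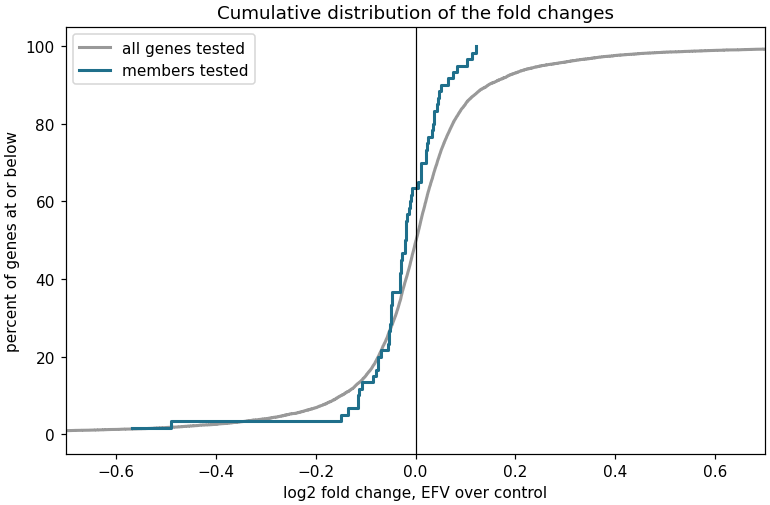
Cumulative distribution of the log2 fold changes (EFV over control) of the 60 members tested (dark line) and of all 15537 genes tested (grey line). Medians are -0.021 and 0.0012; the axis is drawn from -0.7 to 0.7 and leaves out more extreme genes of the grey line.

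Of the HSP90 chaperones, the inducible Hsp90aa1 was the most abundant member. Hsp90aa1 was at 617, 616 and 569 FPKM in control and 628, 612 and 595 FPKM in EFV. The groups overlapped, and control replicate 3 was the lowest library (log2 fold change 0.010, 95% interval -0.092 to 0.11, standard error 0.045; -0.029 without that library). Hsp90ab1 was at 219.5, 221 and 217 FPKM in control and 216, 212 and 215 FPKM in EFV, the constitutive form. All 3 EFV values were below the lowest control value, but by no more than a few percent (log2 fold change -0.049, 95% interval -0.14 to 0.040, standard error 0.039).

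Of the 10 HSP70 members, all of which were tested, 0 were past the limits in either direction, and their median log2 fold change was 0.025. Hspa8 was at 515, 524 and 567 FPKM in control and 507, 558 and 586 FPKM in EFV, the abundant cytosolic form, made without stress and counted here among the heat-inducible members as well, that also uncoats clathrin vesicles at synapses. Replicate 3 was highest in both groups, and the difference between groups was smaller than this spread (log2 fold change 0.023, 95% interval -0.11 to 0.16, standard error 0.060; 0.065 without control replicate 3). Hspa9 was at 51.8, 50.2 and 52.6 FPKM in control and 49.9, 50.8 and 50.4 FPKM in EFV, the mitochondrial form that pulls precursor proteins into the matrix (log2 fold change -0.049, 95% interval -0.14 to 0.043, standard error 0.041). Hspa12a was at 44.1, 43.8 and 42.0 FPKM in control and 43.4, 41.3 and 43.8 FPKM in EFV, a distant relative of the family (log2 fold change -0.032, 95% interval -0.13 to 0.071, standard error 0.045).

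The stress-inducible HSP70 genes Hspa1a (chr17:34969359-34972156) and Hspa1b (chr17:34956429-34959238) were expressed without heat shock. Hspa1a was at 27.5, 20.9 and 26.2 FPKM in control and 25.6, 27.0 and 24.0 FPKM in EFV, and control replicate 2 was the lowest (log2 fold change 0.026, 95% interval -0.18 to 0.23, standard error 0.092). Hspa1b was at 26.0, 25.8 and 32.5 FPKM in control and 27.0, 30.3 and 31.9 FPKM in EFV, with control replicates 1 and 2 below the other libraries (log2 fold change 0.064, 95% interval -0.15 to 0.28, standard error 0.094). Without control replicate 3, Hspa1b was past the limits as higher in EFV (log2 fold change 0.18, 95% interval 0.016 to 0.35, edgeR adjusted p = 1.00), which Hspa1a was not. The estimate for Hspa1b was 0.0051 without control replicate 1 and 0.012 without control replicate 2. It was 0.13, 0.041 and 0.017 without EFV replicates 1, 2 and 3. The copies are hard to tell apart, because 58.8% of the 50-base stretches of the Hspa1a transcript also occur in Hspa1b, and RSEM divides such reads between genes. Their summed level does not depend on this division. It was 53.4, 46.7 and 58.7 FPKM in control and 52.7, 57.2 and 55.9 FPKM in EFV, with control replicate 2 the lowest and control replicate 3 the highest. The log2 fold change of the summed counts was 0.046 (95% interval -0.13 to 0.22), that is 1.03-fold with bounds of 0.917-fold and 1.16-fold. Hspa1l was at 4.92, 4.71 and 4.49 FPKM in control and 5.12, 4.92 and 5.42 FPKM in EFV, a neighbour of Hspa1a best known from the testis, and EFV replicate 2 equalled control replicate 1, although after scaling the groups did not overlap and EFV was higher (log2 fold change 0.11, 95% interval -0.072 to 0.30, standard error 0.081). Of the 50-base stretches of the Hspa1l transcript, 71.4% occur in Gm10501, a gene that the deposited values do not list. The exons of Hspa1l and Gm10501 share 1778 bases on opposite strands. Hspa2 was at 4.23, 3.46 and 5 FPKM in control and 4.6, 4.73 and 4.20 FPKM in EFV, another form best known from the testis, with the fourth highest coefficient of variation of the members at a mean of at least 1 FPKM, 12.3% (log2 fold change 0.076, 95% interval -0.22 to 0.37, standard error 0.13; 0.21 without control replicate 3 and -0.044 without control replicate 2).

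The nucleotide exchange factors of the HSP110 class showed no call among 3. Hspa4l was at 53.1, 55.5 and 53.9 FPKM in control and 55.4, 57.1 and 48.7 FPKM in EFV (log2 fold change -0.028, 95% interval -0.18 to 0.12, standard error 0.067). Hspa4 was at 39.9, 39.3 and 38.2 FPKM in control and 40.3, 40.0 and 37.0 FPKM in EFV (log2 fold change -0.018, 95% interval -0.13 to 0.097, standard error 0.051). EFV replicate 3 had the lowest value of both. Hsph1 was at 16.5, 14.5 and 14.6 FPKM in control and 17.2, 15.4 and 14.9 FPKM in EFV, the most heat-responsive of the class, and replicate 1 was the highest in either group (log2 fold change 0.044, 95% interval -0.11 to 0.20, standard error 0.069).

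The mitochondrial chaperonin Hspd1 and its lid Hspe1, which share the promoter printed above, were at similar levels. Hspd1 was at 41.5, 39.4 and 40.0 FPKM in control and 38.8, 40.1 and 39.0 FPKM in EFV (log2 fold change -0.055, 95% interval -0.15 to 0.036, standard error 0.040). Hspe1 was at 37.5, 33.7 and 32.9 FPKM in control and 34.4, 31.9 and 35.4 FPKM in EFV (log2 fold change -0.053, 95% interval -0.21 to 0.11, standard error 0.070). The groups of both genes overlapped, with control replicate 1 the highest for each. Exons of the genes share 112 bases on opposite strands, so a few reads there could belong to either.

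Taken as a list, the 12 heat-inducible members (Dnaja1, Dnajb1, Dnajb4, Hsp90aa1, Hspa1a, Hspa1b, Hspa4l, Hspa8, Hspb1, Hspd1, Hspe1 and Hsph1), of which several, such as Hspa8, are also made without stress, had a median log2 fold change of -0.0013, with 6 above 0 and 6 below, and 0 past the limits in either direction. Their summed FPKM was 1412, 1403 and 1414 FPKM in control and 1409.9, 1447 and 1450.4 FPKM in EFV, and without the abundant Hspa8 and Hsp90aa1 it was 281, 264 and 278 FPKM in control and 275, 277 and 269 FPKM in EFV. For 10 of the 12 the 95% interval stayed within a 1.2-fold change, for 11 within 1.5-fold and for all 12 within 2-fold. No library was high throughout: control replicate 1 was the highest for 5 of the 12 genes and the lowest for 0, and control replicate 2 was the highest for 0 and the lowest for 5. Hsf1 itself was at 19.1, 19.3 and 19.6 FPKM in control and 19.0, 19.2 and 20.2 FPKM in EFV, close to equal in all 6 libraries (log2 fold change -0.0066, 95% interval -0.11 to 0.099).

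**Figure D5:**
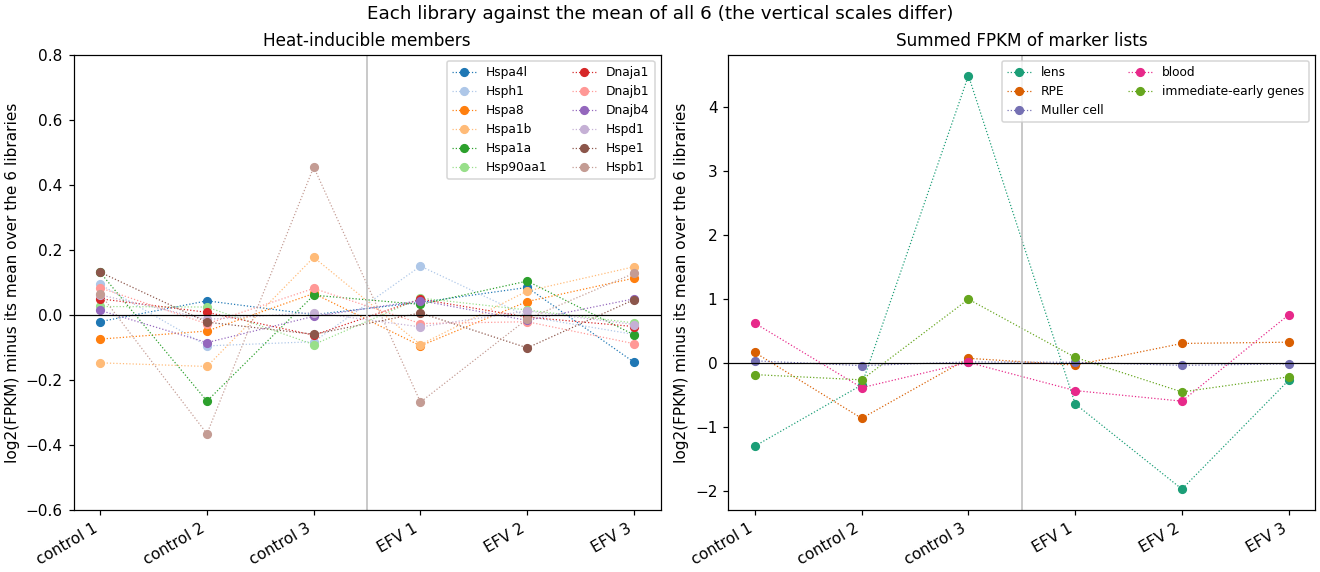
Left, log2 FPKM of the 12 heat-inducible members in each library relative to the mean of the 6 libraries; right, the same for the summed FPKM of marker lists, on a wider scale. Hspb1 is the member that departs most, upwards in control replicate 3, where the lens list is highest.

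Of the 8 small heat shock proteins, 4 were tested and 0 were past the limits. Hspb6 was at 100.1, 112 and 120.5 FPKM in control and 109.6, 107 and 114 FPKM in EFV, the most abundant of them (log2 fold change -0.029, 95% interval -0.18 to 0.12, standard error 0.067), with control replicates 1 and 3 as the lowest and highest library. Without control replicate 3 the estimate for Hspb6 was 0.032. Hspb1 was at 7.33, 5.44 and 9.61 FPKM in control and 5.82, 6.95 and 7.66 FPKM in EFV, the classical small heat shock protein and the member with the second highest coefficient of variation at a mean of at least 1 FPKM, 20.9%. Control replicate 3 was the highest and control replicate 2 the lowest, so the control group spanned all EFV values (log2 fold change -0.15, 95% interval -0.61 to 0.31, standard error 0.20), and without control replicate 3 the estimate was 0.074 (95% interval -0.34 to 0.49). Hspb11 was at 14.9, 14.1 and 14.1 FPKM in control and 14.0, 14.5 and 14.4 FPKM in EFV, despite its name a subunit of the transport machinery of cilia (log2 fold change -0.020, 95% interval -0.23 to 0.19, standard error 0.094). Hspb8 was at 3.66, 3.64 and 3.78 FPKM in control and 3.55, 3.35 and 3.93 FPKM in EFV, the partner of the cochaperone Bag3 (log2 fold change -0.049, 95% interval -0.31 to 0.21, standard error 0.11).

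Hspb2 (chr9:50751072-50752354), a small heat shock protein of muscle, was the untested member closest to the filter, with at least 10 counts in 2 libraries. Hspb2 was at 0.29, 0.75 and 1.37 FPKM in control and 0, 0.26 and 0.44 FPKM in EFV, from 4, 10 and 23 counts and 0, 4 and 6 counts. Control replicate 3 was the highest, and control replicate 1 was below EFV replicate 3. When tested without the filter its log2 fold change was -1.88 (95% interval -3.86 to 0.11, edgeR adjusted p = 0.999). Leaving out control replicate 3 moved it to -1.09, and leaving out control replicate 1 or EFV replicate 3 took it past the limits (-2.30, and -2.58). The gene is crowded by Cryab, which encodes alpha B crystallin, a small heat shock protein of lens and muscle: 252 bases of their exons overlap on opposite strands, and 28.0% of the 50-base stretches of the Hspb2 transcript occur in Cryab. Cryab was at 43.4, 48.8 and 565 FPKM in control and 51.2, 41.0 and 69.2 FPKM in EFV, and Cryaa was at 16.4, 35.3 and 1341 FPKM in control and 43.5, 10.7 and 73.7 FPKM in EFV, the lens form, so both were far higher in control replicate 3 than elsewhere, as were the lens markers. Cryab and Cryaa were past the limits as lower in EFV with this library (log2 fold change -1.98, 95% interval -3.85 to -0.11, and -3.47, 95% interval -6.47 to -0.47), but not without it (0.18, 95% interval -0.22 to 0.57, and 0.70, 95% interval -0.73 to 2.12). Of the 7 lens markers tested, 7 were past the limits as lower in EFV with all libraries, 0 without control replicate 3, 0 without EFV replicate 1, 0 without EFV replicate 2 and 3 without EFV replicate 3. Their median log2 fold change was -3.61 with all libraries, -0.072 without control replicate 3, and -3.59, -3.31 and -3.68 without EFV replicates 1, 2 and 3, so the change itself was lost only without control replicate 3. The calls of Cryab and Cryaa were also lost without any 1 EFV library, with estimates of -1.83 or lower for Cryab and -3.01 or lower for Cryaa. The 8 markers of skeletal muscle summed to 6.11, 6.12 and 7.21 FPKM in control and 7.74, 7.54 and 8.54 FPKM in EFV, and the 8 of vascular smooth muscle to 26.5, 27.5 and 27.9 FPKM in control and 27.4, 25.8 and 26.4 FPKM in EFV. All 3 EFV sums of skeletal muscle were above all control sums, whereas the highest values of Hspb2 were in control. With a library left out there were calls as higher in EFV for Mb without control replicate 2 and Acta1 without control replicate 3, and as lower for Acta2 of smooth muscle without control replicate 1. Mylpf and Mylk were the most abundant of these lists, and Myh1, Myh4 and Cnn1 were at 0 in some libraries. These lists and the lens markers were read beside Hspb2, and their part in the result was not tested. The other untested small heat shock proteins, Hspb3, Hspb7 and Hspb9, were at no more than 0.45 FPKM in any library.

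The 4 class A J-domain proteins, which resemble the bacterial DnaJ over their full length, had a median log2 fold change of 0.0076, with 0 past the limits. Dnaja2 was at 47.0, 47.4 and 44.9 FPKM in control and 47.8, 46.2 and 48.0 FPKM in EFV (log2 fold change 0.010, 95% interval -0.085 to 0.11, standard error 0.042; -0.015 without control replicate 3). Dnaja1 was at 44.2, 42.9 and 40.9 FPKM in control and 44.2, 42.5 and 41.6 FPKM in EFV, its heat-inducible relative (log2 fold change -0.013, 95% interval -0.12 to 0.093, standard error 0.047). Dnaja3 was at 23.1, 21.6 and 21.8 FPKM in control and 23.8, 21.9 and 21.9 FPKM in EFV, the mitochondrial form (log2 fold change 0.0050, 95% interval -0.11 to 0.12, standard error 0.050). The groups of each of these 3 overlapped, and the fold change changed sign with total counts as scaling for Dnaja1 and with single libraries left out for all 3.

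Of the 13 class B proteins, 11 were tested, with 0 past the limits as higher and 1 as lower, and a median log2 fold change of -0.069. The one call was Dnajb11 (chr16:22857845-22879634), a partner of the HSP70 chaperone Hspa5 in the lumen of the endoplasmic reticulum. Dnajb11 was at 26.4, 26.8 and 28.0 FPKM in control and 25, 25.4 and 25.6 FPKM in EFV. All 3 EFV values were below the lowest control value, by a small margin (log2 fold change -0.11, 95% interval -0.22 to -0.0092, standard error 0.047; edgeR adjusted p = 0.999), which is 0.924-fold with bounds of 0.858-fold and 0.994-fold. The call was lost with total counts as scaling (-0.099), in DESeq2 (-0.12) and, because the change was then below 7%, with limma on log2(FPKM + 0.1) (-0.096) or log2(FPKM + 1) (-0.093). It was also lost without control replicate 2 (-0.12), control replicate 3 (-0.090), EFV replicate 1 (-0.11), EFV replicate 2 (-0.13) or EFV replicate 3 (-0.11), and held without control replicate 1 (-0.14). The direction was the same in each of these. Other proteins of the same compartment had overlapping groups. Dnajb9 was at 19.5, 20.5 and 19.1 FPKM in control and 18.7, 18.5 and 19.9 FPKM in EFV (log2 fold change -0.069, 95% interval -0.20 to 0.064), and Dnajc10 was at 17.4, 15.6 and 16.6 FPKM in control and 17.0, 17.1 and 15.7 FPKM in EFV (-0.011, 95% interval -0.13 to 0.11). Of the chaperones left out by the rule, Hspa5 was at 85.8, 77.5 and 85.4 FPKM in control and 80.6, 88.9 and 77.2 FPKM in EFV (log2 fold change -0.026, 95% interval -0.18 to 0.12), Hsp90b1 at 155, 175 and 151 FPKM in control and 145, 158 and 139.6 FPKM in EFV (-0.14, 95% interval -0.31 to 0.030) and Dnajc3 at 6.98, 6.91 and 7.27 FPKM in control and 6.69, 7.19 and 7.04 FPKM in EFV (-0.033, 95% interval -0.16 to 0.095), all with overlapping groups. Hsp90b1 was past the limits as lower in EFV without control replicate 3 (-0.18) or EFV replicate 2 (-0.20), and in DESeq2 (-0.14) and the Poisson model, and its estimate was -0.065 without control replicate 2.

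Dnajb1 was at 16.9, 15.7 and 16.9 FPKM in control and 15.7, 15.8 and 15.0 FPKM in EFV, the classical heat-inducible J-domain protein and main partner of inducible HSP70. The groups did not overlap after scaling, although in FPKM control replicate 2 lay below EFV replicates 1 and 2 (log2 fold change -0.11, 95% interval -0.22 to 0.0092, standard error 0.051). It was past the limits without control replicate 2 (-0.14) and in the Poisson model. Dnajb6 was at 62.3, 65.5 and 67.7 FPKM in control and 65.9, 64.2 and 62.5 FPKM in EFV, a suppressor of protein aggregation with the element shown above (log2 fold change -0.048, 95% interval -0.15 to 0.057, standard error 0.046). Dnajb2 was at 44.6, 45.0 and 44.9 FPKM in control and 46.4, 45.9 and 43.1 FPKM in EFV, a form abundant in neurons (log2 fold change -0.020, 95% interval -0.12 to 0.077, standard error 0.043). Dnajb4 was at 10.4, 9.70 and 10.3 FPKM in control and 10.6, 10.2 and 10.7 FPKM in EFV (log2 fold change 0.034, 95% interval -0.070 to 0.14, standard error 0.046). The groups of these last 3 overlapped.

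The rarest class B members varied most. Dnajb3 was at 1.02, 1.87 and 1.46 FPKM in control and 1.02, 0.82 and 1.12 FPKM in EFV, a form known from sperm. EFV replicate 1 equalled control replicate 1 and the other EFV values were below or between the controls, and the coefficient of variation was the highest of all members at a mean of at least 1 FPKM, 31.4% (log2 fold change -0.57, 95% interval -1.24 to 0.10, standard error 0.30). Dnajb3 was past the limits without control replicate 1 (-0.77) and in the Poisson model, and its estimate was -0.34 without control replicate 2. Dnajb7 was at 0.54, 0.57 and 0.36 FPKM in control and 0.54, 0.18 and 0.33 FPKM in EFV, the tested member closest to the filter, with 10 counts or more in 4 libraries (log2 fold change -0.49, 95% interval -1.48 to 0.51, standard error 0.44; -0.67 without control replicate 3, -0.94 without EFV replicate 1 and -0.19 without EFV replicate 2). Dnajb14 was at 5.19, 5.73 and 5.90 FPKM in control and 5.34, 7.27 and 4.96 FPKM in EFV, an anchored protein of the endoplasmic reticulum, with EFV replicate 2 the highest (log2 fold change 0.048, 95% interval -0.29 to 0.39, standard error 0.15).

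Class C holds proteins that have little in common beyond the J domain. Of 26 members 24 were tested, with 0 past the limits and a median log2 fold change of -0.022. Dnajc5 was at 88.0, 86.7 and 85.5 FPKM in control and 82.5, 88.7 and 83.5 FPKM in EFV, the cysteine string protein of synaptic vesicles and the most abundant J-domain member (log2 fold change -0.047, 95% interval -0.16 to 0.062, standard error 0.048). Dnajc6 was at 38.0, 39.8 and 39.1 FPKM in control and 38.5, 39.6 and 37.7 FPKM in EFV, auxilin, which directs Hspa8 to clathrin coats in neurons (log2 fold change -0.031, 95% interval -0.14 to 0.080, standard error 0.049). Dnajc13 was at 10.1, 10.3 and 10.1 FPKM in control and 10.6, 10.7 and 9.95 FPKM in EFV, which acts on endosomes (log2 fold change 0.022, 95% interval -0.082 to 0.13, standard error 0.046). The groups of these 3 overlapped, and the whole interval of each lay within a 1.2-fold change.

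Dnajc8 was at 66.7, 72.6 and 62.5 FPKM in control and 64.5, 63.2 and 66.1 FPKM in EFV, a protein of the spliceosome, with control replicate 2 the highest and control replicate 3 the lowest (log2 fold change -0.076, 95% interval -0.21 to 0.057, standard error 0.059). Dnajc7 was at 44.4, 43.9 and 43.7 FPKM in control and 44.4, 46.7 and 45.8 FPKM in EFV, which also binds HSP90 (log2 fold change 0.036, 95% interval -0.055 to 0.13, standard error 0.040). Dnajc4 was at 25.9, 25.5 and 26.4 FPKM in control and 26.5, 26.6 and 28.1 FPKM in EFV, and the groups did not overlap, EFV being higher by a margin smaller than the spread within EFV (log2 fold change 0.034, 95% interval -0.098 to 0.17, standard error 0.059). Without control replicate 3, Dnajc8 (-0.13) and Dnajc21 (-0.22, and -0.12 with all libraries) were past the limits as lower in EFV, and Dnajb11 was not; without control replicate 2 the estimate for Dnajc8 was -0.011. For these fits, 3 of the 60 members and 530 of all 15537 genes were past the limits without control replicate 3, and 3 and 576 without control replicate 1. Without control replicate 1, Dnajc16 was past them as lower (-0.14, and -0.075 with all libraries). Dnajc24 was at 5.99, 6.47 and 5.36 FPKM in control and 7.05, 6.76 and 5.30 FPKM in EFV, with the fifth highest coefficient of variation of the members at a mean of at least 1 FPKM, 11.8% (log2 fold change 0.084, 95% interval -0.24 to 0.41, standard error 0.14). Its estimate was 0.15 and 0.014 without control replicates 2 and 3, and 0.0059, 0.031 and 0.20 without EFV replicates 1, 2 and 3. The other 16 class C members tested had means between 3.29 and 34.2 FPKM. Of the J-domain proteins with other names, Gak, Sec63 and Hscb were not past the limits. Gak, the relative of Dnajc6 outside neurons, was at 18.5, 17.4 and 18.7 FPKM in control and 18.5, 17.8 and 18.0 FPKM in EFV, Sec63 of the translocon at 17.7, 17.9 and 18.1 FPKM in control and 18.8, 18.0 and 16.8 FPKM in EFV and Hscb of iron-sulfur cluster assembly at 7.64, 7.23 and 6.32 FPKM in control and 5.37, 7 and 7.67 FPKM in EFV.

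Of 11 HSP70 cochaperones, 11 were tested and 0 were past the limits in either direction (median log2 fold change 0.017); the most abundant were Bag6, Stub1 and St13, with mean levels of 72.9, 58.5 and 58.0 FPKM. Of 20 HSP90 cochaperones, 20 were tested, with 0 past the limits as higher and 1 as lower (median -0.0099), beside 228 higher and 239 lower of the 15537 genes tested, 3.01% in both directions together. The most abundant was Aipl1, which photoreceptors need to fold their phosphodiesterase. Aipl1 was at 375, 379 and 401 FPKM in control and 385, 395 and 389 FPKM in EFV, and its log2 fold change was 0.00052 (95% interval -0.099 to 0.10). Fkbp8 and Fkbp4 followed with 121 and 89.4 FPKM. The call was Nudc, which also serves dynein. Nudc was at 61.9, 64.4 and 60.4 FPKM in control and 55.8, 57.2 and 58.7 FPKM in EFV, with every EFV value below every control value (log2 fold change -0.14, 95% interval -0.24 to -0.039, standard error 0.044; edgeR adjusted p = 0.999). It was lost without control replicate 2 (-0.11).

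Of the 15 subunits of the chaperonin TRiC and of prefoldin, all were tested, with 0 past the limits as higher and 2 as lower (median log2 fold change -0.016), a count read beside the same 3.01% of all genes tested. The most abundant were Pfdn5, Cct5 and Cct6a with 132, 83.6 and 61.7 FPKM. Both calls were subunits of prefoldin, which hands actin and tubulin to TRiC. Pfdn1 was at 33.6, 30 and 30.2 FPKM in control and 28.9, 27.4 and 29.1 FPKM in EFV (log2 fold change -0.15, 95% interval -0.30 to -0.014, standard error 0.062). Pfdn2 was at 39.7, 41.6 and 37.2 FPKM in control and 34.5, 36.8 and 36.6 FPKM in EFV (log2 fold change -0.15, 95% interval -0.31 to -0.0013, standard error 0.067). The EFV values of both were below all control values, and edgeR gave both an adjusted p of 0.999. Leaving out a library ended the call of Pfdn1 for control replicate 1 (-0.11), EFV replicate 1 (-0.16), EFV replicate 2 (-0.14) and EFV replicate 3 (-0.17). It ended that of Pfdn2 for control replicate 1 (-0.16), control replicate 2 (-0.11), EFV replicate 1 (-0.12), EFV replicate 2 (-0.18) and EFV replicate 3 (-0.16). Without EFV replicate 2, the subunit Pfdn6 was past the limits as lower. Of 5 genes, the heat shock factors Hsf1, Hsf2, Hsf4 and Hsf5 and their regulator Hsbp1, 4 were tested and 0 were past the limits; Hsbp1, Hsf1 and Hsf2 had mean levels of 100.01, 19.4 and 16.3 FPKM.

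The lists that mark cell types give the setting for these values. Of rod genes, Pde6g was past the limits as lower in EFV, whereas Nrl (0.051), Pde6b (0.011) and Cnga1 (0.0016) had log2 fold changes above 0 and Gnat1 (-0.063), Pde6a (-0.049) and Sag (-0.026) below 0, and none of these 6 was past the limits with all libraries, although Pde6a was, as lower, without EFV replicate 2. Of 8 RPE markers 2, Rpe65 and Lrat, were past them as higher, and the estimates of all 8 were above 0, with a median of 0.45 that was 0.14 without control replicate 2 and 0.29 without EFV replicate 2. Of these calls, that of Pde6g was lost without control replicate 1, control replicate 2, EFV replicate 1 or EFV replicate 3, that of Rpe65 without control replicate 1 or any EFV library, and that of Lrat without control replicate 1, control replicate 2, EFV replicate 1 or EFV replicate 2. For 6 cone, 6 Müller cell and 5 blood markers the count was 0 in either direction with all libraries, and the summed FPKM was 1409, 1339 and 1392 FPKM in control and 1387, 1342 and 1364 FPKM in EFV for Müller cells and 264, 131 and 173 FPKM in control and 127, 114 and 289 FPKM in EFV for blood. Opn1sw, Glul and Hba-a1 were the most abundant of these lists. Rgr of the RPE was past the limits as higher without control replicate 1 or EFV replicate 1. With a library left out there were calls as lower in EFV for Opn1sw without control replicate 1, for Vim without control replicate 2, and for Hba-a1 and Hbb-bs without EFV replicate 3. Of the 11 immediate-early genes tested 1, Fos, was past the limits as lower in EFV. The count was 5, 4 and 0 without control replicates 1, 2 and 3, and 2, 0 and 1 without EFV replicates 1, 2 and 3. The call of Fos was lost without control replicate 3, EFV replicate 2 or EFV replicate 3, where the call was Dusp1. Of the 11 estimates 10 were below 0. The median log2 fold change of these genes was -0.39, or 0.092 without control replicate 3. It lay between -0.71 and -0.24 without any other 1 library. The part of these cell types in the levels of the members was not tested.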

How the data were processed

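RNA of 6 pools, 3 control and 3 EFV, was quantified by the authors, whose labels name HISAT2 2.0.4, Bowtie2 2.2.5, RSEM 1.2.12 and the build mm10, and the deposited values are expected counts and FPKM per gene. Levels are the authors' FPKM. Expected counts were rounded, and genes reaching 10 counts in 3 or more libraries were tested, EFV against control, with edgeR 4.0.16 (quasi-likelihood test, TMM scaling) in R 4.3.3; p-values were adjusted by Benjamini and Hochberg over the 15537 genes that passed. Between pools the biological coefficient of variation came to 0.0983. DESeq2 1.42.0, limma 3.58.1 on FPKM, a Poisson model, other scalings and filters, the replicate number as a block and leaving out each library were tried as alternatives. Promoters are from RefSeq.

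Genes were named by rule: members past the limits, the 3 most abundant of each role, members whose groups do not overlap, the 5 most variable, heat-inducible members, members nearest the filter, members with known roles in retina or synapse, and, of the other lists, genes past the limits and the 3 most abundant. Hspb8, Dnajb9, Dnajc2, Dnajc10, Dnajc16, Dnajc21, Dnajc30, Pfdn6 and the single genes of marker lists were named after their values were seen. The members and lists were chosen with earlier results of these data known.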

Additional observations from a re-analysis of the deposited data

How the results depend on the processing

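The number of members past the p and fold limits, 1 in the edgeR test, was 0 with total counts as scaling, 0 in DESeq2, 0 with limma on log2(FPKM + 0.1), 0 with limma on log2(FPKM + 1) and 6 in the Poisson model, which assumes no spread between pools. It was 1 with RLE scaling, with either other filter and with Entrez identifiers only, and ranged from 0 to 3 of 60 when single libraries were left out, beside 388 to 576 of all 15537 genes. The number of members at an adjusted p of 0.05 was 0 in the edgeR test and under each alternative except the Poisson model, where it was 6 of 60, beside 2043 of all 15537 genes. The median log2 fold change of the members ranged from -0.040 to 0.0085 when single libraries were left out, the highest value being that without EFV replicate 3, which alone moved it past the spread between libraries.

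Libraries of the 2 groups share only a replicate number, and every library correlated best with the library of its own number in the other group (0.0999, 0.0777 and 0.111). With this number as a block, 1 member was past the limits and the median was -0.021; Hsp90b1, left out by the rule, was past them with the block (-0.14).

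Some estimates, most of them near 0, changed sign under some alternatives, and the cause was not tested. Those of Cryaa and Cryab, far below 0 with all libraries, and that of Hspb1 did so only without control replicate 3. That of Dnaja1 was 0.0026 with total counts, 0.0036 with limma on log2(FPKM + 0.1) and 0.0035 with limma on log2(FPKM + 1), and that of Dnajb2 0.0081 and 0.0080 with these limma settings. Leaving out single libraries gave these lowest and highest log2 fold changes: Dnaja1 -0.045 to 0.011; Dnajb14 -0.15 to 0.16; Hspa8 -0.018 to 0.080; Hspb11 -0.041 to 0.0096; Hspe1 -0.092 to 0.00079; Dnaja3 -0.033 to 0.031; Hspa1a -0.080 to 0.098; Hspa2 -0.044 to 0.21; Dnaja2 -0.015 to 0.032; Hsp90aa1 -0.029 to 0.035; Hspb1 -0.33 to 0.074; Hspb6 -0.10 to 0.032; Hsph1 -0.016 to 0.10; Dnajc13 -0.0084 to 0.059; Dnajb2 -0.043 to 0.011; Hspa4 -0.044 to 0.026; Hspa4l -0.084 to 0.043; Cryaa -4.12 to 0.70; Cryab -2.46 to 0.18; Hspa5 -0.095 to 0.022. After the data were seen, summing Hspa1a and Hspa1b (log2 fold change 0.046) and leaving out each library for Hspb2 without a filter (-2.58 to -1.09) were added. With 3 pools per group and at least 23455167 counts in each, rare members, such as Dnajb3 and Dnajb7, were bounded only loosely.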
